A study of Rattus norvegicus with 24 samples.

Results

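Transcripts of 10 genes that mark the choroid plexus (Ttr, Folr1, Kl, Clic6, Kcne2, Aqp1, Otx2, Sostdc1, Slc4a5 and Enpp2) were followed through 24 mRNA libraries of rat brain, by region, by treatment and in each single library. The members were taken by gene name from a count table of 35032 genes, and all 10 had a row. The libraries were made from 2 regions of young male Sprague-Dawley rats, the hypothalamic paraventricular nucleus (PVN) and the central amygdaloid nucleus (CEA). They formed 8 groups of 3, from the 2 regions and 4 treatments: normal control without operation (NC), removal of part of the liver (HT), the same operation with electroacupuncture (EA), and the same operation with needles inserted and no current passed (SEA). All rats, the NC and HT rats included, were habituated to restraint and restrained, and the tissue was collected a day after stimulation ended. The treatments were compared to follow surgical stress and its treatment in the brain. By the study's methods a single rat gave too little tissue, so brain samples came from different animals handled as one batch. Which library came from which animal is not given, so the p-values measure the spread between these libraries.

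The choroid plexus is a vascular tissue that hangs in the ventricles of the brain and is covered by a single layer of epithelial cells. These cells secrete cerebrospinal fluid by moving sodium, bicarbonate and chloride, with water following, and they carry vitamins and hormones from blood into that fluid. Neither the PVN nor the CEA contains choroid plexus, although the PVN borders the third ventricle and the amygdala lies close to the lateral ventricle. Transthyretin (Ttr), the carrier of thyroid hormone and retinol in cerebrospinal fluid, is among the most abundant messages of the choroid plexus epithelium. Folr1 encodes the folate receptor that moves folate into cerebrospinal fluid, and Kl encodes klotho, a co-receptor for fibroblast growth factor 23. Aqp1 is a water channel, Slc4a5 a sodium bicarbonate cotransporter, Kcne2 an accessory subunit of potassium channels and Clic6 a member of the chloride intracellular channel family. Sostdc1 is a secreted antagonist of bone morphogenetic proteins, Otx2 a homeodomain transcription factor needed for choroid plexus development, and Enpp2 encodes autotaxin, an enzyme that makes lysophosphatidic acid and is also made by oligodendrocytes.

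Ttr separated the libraries most. In the PVN its counts were 12, 57 and 80 in NC replicates 1 to 3, 15, 10 and 13 in HT, 16, 37 and 16 in EA, and 13, 19 and 4 in SEA. In the CEA they were 202, 16810 and 144 in NC, 58, 260 and 124 in HT, 4826, 79 and 112 in EA, and 79, 26979 and 195 in SEA. Thus 3 libraries stood apart, 1 each in CEA SEA (replicate 2), CEA NC (replicate 2) and CEA EA (replicate 1), and no CEA HT or PVN library did. Ttr took 0.158%, 0.0926% and 0.0349% of all counts in these 3 libraries, in that order. As CPM, counts put on a common scale by library total and TMM factor, Ttr stood at 1682, 1012 and 352 in them, whereas the highest of the other 9 CEA libraries had 16.9 and the highest PVN library 4.48. Total counts ran from 13152772 to 18607032 per library, so depth varied 1.41-fold at most, and no libraries held identical values. These 3 libraries were singled out after their Ttr values were seen, and the main results that rest on them are given with and without them.

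**Figure D1:**
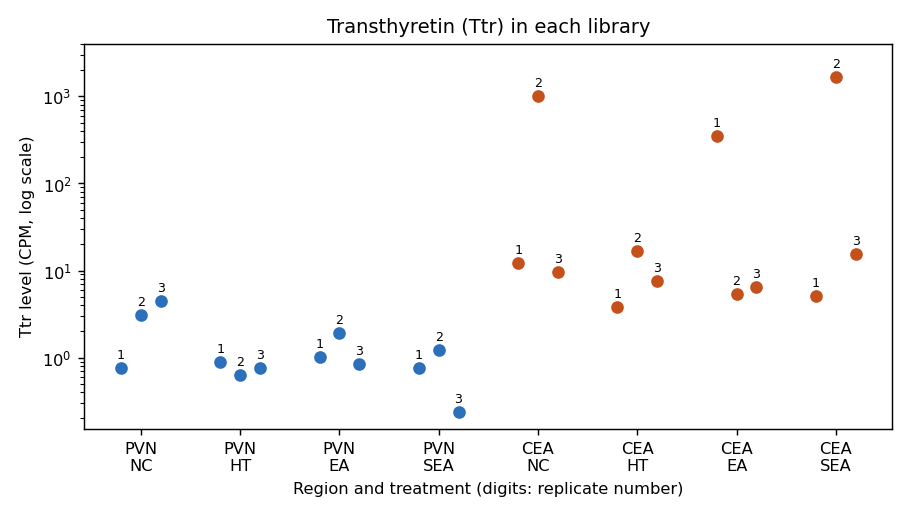
Level of Ttr in each of the 24 libraries (CPM, log scale) by region and treatment, 1 point per library, with the replicate number above it. CEA SEA replicate 2, CEA NC replicate 2 and CEA EA replicate 1 lie at 352 CPM or more, and the other 9 CEA libraries lie at or below 16.9 CPM.

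Most of the other members were also higher in these 3 libraries than in the rest of the CEA. Clic6 was at 32.6 CPM in CEA NC replicate 2, 14.7 in CEA EA replicate 1 and 45.3 in CEA SEA replicate 2, against 1.23 to 4.54 in the other 9 CEA libraries. Slc4a5 was at 18.7, 10.6 and 27.9 CPM in these libraries, in the same order, against 0.554 to 1.92 in the others. Kl was at 15.2, 7.51 and 25.9 CPM, against 0.240 to 1.26. None of these 3 genes overlapped between the 3 libraries and the rest of the CEA. Aqp1 was at 8.97, 4.45 and 14.3 CPM, against 0.270 to 2.40. Sostdc1 was at 12.2, 2.48 and 19.2 CPM, against 0 to 0.573. Folr1 was at 9.45, 3.79 and 12.8 CPM, against 0 to 3.44, so that the ranges lay close together. Kcne2 was at 6.80, 4.45 and 12.6 CPM, against 1.27 to 2.46. In all, 8 of the 10 members were higher in each of the 3 libraries than in any of the other 9 CEA libraries, where 0.355% of all 17768 genes with enough counts were. Since Ttr picked the libraries, these shares describe them and test nothing.

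Enpp2 and Otx2 departed from this pattern. Enpp2 was at 394 CPM in CEA NC replicate 2 and 386 in CEA SEA replicate 2, above the 118 to 271 CPM of the other 9 CEA libraries, but at 194 CPM in CEA EA replicate 1 it lay within them. Otx2 had 1 count in the whole series, in PVN HT replicate 1, and 0 in the other 23 libraries, including the 3 with the most Ttr. With no read seen, up to 3 counts remain possible, which is 0.157 to 0.240 CPM depending on the library, so Otx2 was not detectable at this depth (the limit covers counting error only). The row for Otx2 covers 870 bases. Another row in the table, the endothelial marker Cldn5, was likewise at 0 in every library although the endothelial gene Flt1 was at 54.2 CPM or more in every PVN library and at 69.1 or more in the other 9 CEA libraries. Cldn5 was picked out after its values were seen, and how reads were assigned to either row was not tested.

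**Figure D2:**
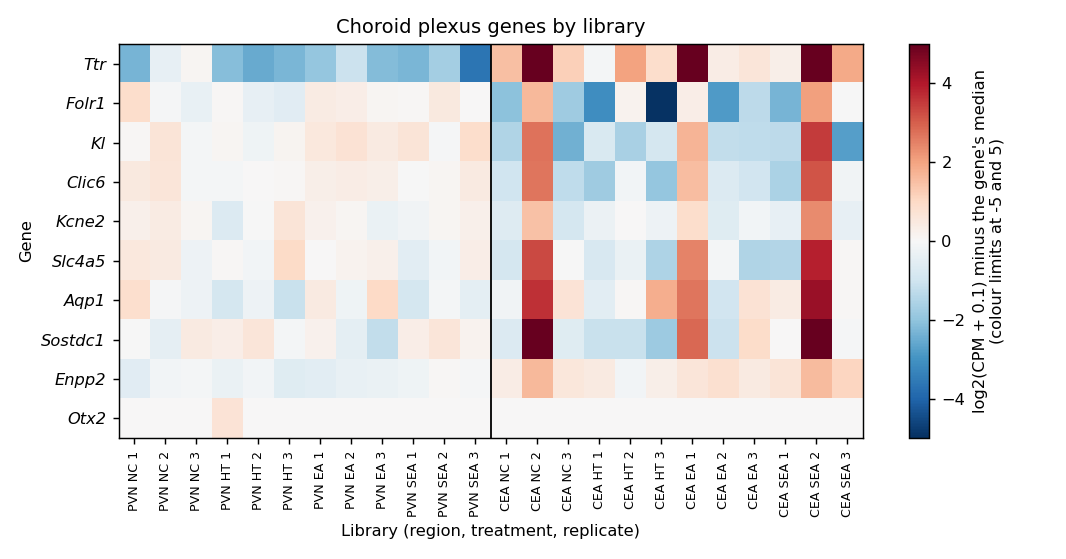
Level of each member in each library, as log2(CPM + 0.1) minus the gene's median over the 24 libraries, with colours limited at -5 and 5. The columns for CEA SEA replicate 2, CEA NC replicate 2 and CEA EA replicate 1 are above the median for 9 of the 10 genes, Otx2 being the exception, while Folr1, Kl and Clic6 are paler or bluer in most other CEA columns than in the PVN columns.

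Apart from Enpp2 and Otx2, the members appeared in similar proportions in the 3 libraries. For each gene, the level above the median of the other 9 CEA libraries was expressed as a percent of the same difference for Ttr. Clic6 came to between 2.56% and 3.55% of the Ttr difference, Slc4a5 to between 1.61% and 2.80%, and Kl to between 1.43% and 1.94%. Sostdc1 came to between 0.685% and 1.20%, Aqp1 to between 0.814% and 1.10%, Folr1 to between 0.728% and 0.911%, and Kcne2 to between 0.502% and 0.781%. Within each of these 7 genes the highest of the 3 percentages was 1.25 to 1.75 times the lowest, while the Ttr level itself ran from 352 to 1682 CPM. For Enpp2 the percentages spread over 4.18-fold, from 5.18% to 21.7%. With 1 library in each treatment these proportions have no replicate error.

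**Figure D3:**
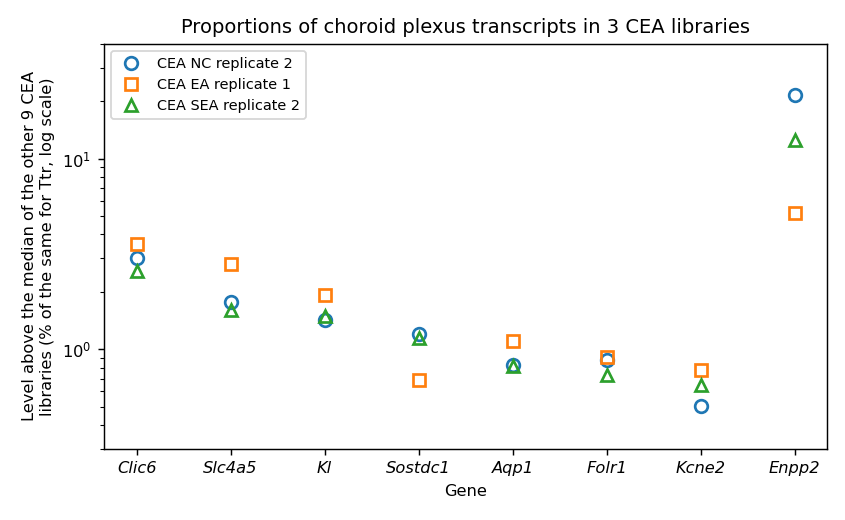
Level of each gene above the median of the other 9 CEA libraries, as a percent of the same difference for Ttr (log scale), with 1 symbol for each of the 3 libraries. For 7 genes the symbols lie within 1.75-fold of each other, and for Enpp2 they spread over 4.18-fold.

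Other choroid plexus genes were counted from a list of 26, of which 25 had a row. Of these, 10 were above all other 9 CEA libraries in each of the 3 libraries, among them Cldn2, a claudin of the tight junctions of this epithelium, at 13.5, 5.76 and 18.0 CPM against at most 0.239. Coagulation factor V (F5) was at 14.5, 7.22 and 19.1 CPM against at most 0.478. For these 10 genes, the percent of the Ttr difference varied between the 3 libraries by 1.28-fold to 6.71-fold, depending on the gene. The summed level of the 25 genes was 363 to 594 CPM in the 3 libraries and 239 to 311 CPM in the other 9. The 4 genes of this list with the highest mean level were Trpm3, Igf2, Car12 and Igfbp2, and none of these was among the 10.

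The same count was made for markers of neighbouring tissues, and at the 0.355% of all genes given above a list of this size would be at or near 0 in any case. Of 11 genes of ependyma and motile cilia, 0 were above all other 9 CEA libraries in each of the 3, and their summed level was 56.7 to 65.1 CPM in the 3 libraries against 39.0 to 72.9 in the other 9. The same count was 0 of 7 for endothelium, 0 of 4 for blood, 0 of 7 for oligodendrocytes, 0 of 6 for the central amygdala and striatum, 0 of 6 for the neuroendocrine PVN and 0 of 11 for further ion transporters of cerebrospinal fluid secretion. It was 1 of 12 for meninges and fibroblasts, whose summed level was 70.0 to 88.2 CPM in the 3 libraries and 49.8 to 76.6 in the other 9. The central amygdala and striatum markers summed to 3519 to 5874 CPM in the 3 libraries, within the 2535 to 5962 CPM of the other 9. In bulk tissue, more cells of a type and more RNA per cell cannot be told apart, and whether the dissected pieces differed in choroid plexus content was not tested.

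Likeness to Ttr was measured as Pearson's r of log2 CPM over the 24 libraries after subtracting each region's mean, among 17768 genes. The 5 genes outside the members with the highest r were Cldn2 (0.948), F5 (0.923), Cltrn (0.913), Slco1a2 (0.902) and Prr32 (0.871). Of the members, Clic6 reached 0.916, Slc4a5 0.889, Sostdc1 0.873, Kcne2 0.852, Kl 0.837, Aqp1 0.816, Folr1 0.774 and Enpp2 0.633. The same 3 libraries set these values. In the 12 PVN libraries the members' r with Ttr lay between -0.171 and 0.111. In the 9 other CEA libraries it was 0.692 for Clic6, 0.665 for Folr1 and -0.697 for Kl. The other members with a value lay between -0.179 (Enpp2) and 0.455 (Slc4a5). Clic6 and Folr1 ranked only 561 and 722 among the 17768 genes there. The nearest genes within the 12 PVN libraries were Usb1 (0.936), Cltrn (0.864) and an assembled transcript without a name (0.841), and within the 12 CEA libraries Cldn2 (0.985), F5 (0.973) and Mfrp (0.954). All r values describe libraries that share tissue and depth, and genes at a few counts give unstable values.

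Clic6 and Kcne2 lie on chromosome 11 in the table's annotation, at 32655616 to 32699382 and 32440237 to 32447259. Aqp1 and Slc4a5 lie on chromosome 4, at 85551502 to 85569360 and 114918488 to 115002300, and Kl lies on chromosome 12 at 943006 to 987551. These are the spans of the whole genes; the table names no build. Since these genes were high in the same 3 libraries, the 250 bases upstream of the start site are shown for Aqp1, Slc4a5 and Kl, which with Ttr were the 4 members with a promoter entry in RefSeq (build GRCr8, plus strand, 5′ to 3′). The window of Ttr is not shown, and its matches are not given. Capitals mark the TATA box core TATAAA, which was searched on both strands together with TAATCC, a homeodomain core bound by OTX factors.

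Aqp1, chr4:85812534-85812783: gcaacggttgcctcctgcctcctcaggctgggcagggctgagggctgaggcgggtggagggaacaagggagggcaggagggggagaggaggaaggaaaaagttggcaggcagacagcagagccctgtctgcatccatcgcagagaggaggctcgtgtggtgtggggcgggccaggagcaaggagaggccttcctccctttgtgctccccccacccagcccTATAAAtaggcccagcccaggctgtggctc

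Slc4a5, chr4:117283044-117283293: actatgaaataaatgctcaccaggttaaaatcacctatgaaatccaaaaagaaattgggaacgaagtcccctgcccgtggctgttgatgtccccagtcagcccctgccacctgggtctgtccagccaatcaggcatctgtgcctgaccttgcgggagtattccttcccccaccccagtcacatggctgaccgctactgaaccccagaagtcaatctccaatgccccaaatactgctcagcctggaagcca

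Kl, chr12:5325753-5326002: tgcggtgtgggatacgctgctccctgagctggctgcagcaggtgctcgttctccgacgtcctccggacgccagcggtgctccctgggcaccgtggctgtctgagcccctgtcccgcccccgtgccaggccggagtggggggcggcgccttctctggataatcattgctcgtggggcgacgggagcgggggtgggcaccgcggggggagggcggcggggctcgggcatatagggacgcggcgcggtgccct

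Aqp1 held 1 TATAAA, starting 30 bases before the start site, and the windows of Slc4a5 and Kl held none. This core was in 12.9% of 33469 rat promoter windows of the same length. TAATCC was in none of the 3 windows and in 6.34% of all windows. A match is a run of letters and not a measured site.

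The regions were compared first in unoperated rats. There, 2 of the 8 members tested passed an edgeR adjusted p of 0.05 between CEA NC and PVN NC, where 26.4% of 16748 genes did. Ttr was at 0.758, 3.11 and 4.48 CPM in PVN NC and at 12.1, 1012 and 9.62 CPM in CEA NC. The groups did not overlap (21.8% of all genes were higher in the CEA without overlap), and its log2 fold change came to 6.91 (SE 2.02, edgeR adjusted p = 0.0422). Without CEA NC replicate 2 it was 1.96 (adjusted p = 0.0724), and with the replicate number as a block 4.65 (adjusted p = 0.0932). Enpp2 was at 85.4, 115 and 119 CPM in PVN NC and at 165, 394 and 187 CPM in CEA NC. It also did not overlap, with a log2 fold change of 1.21 (SE 0.33, edgeR adjusted p = 0.0320). Without CEA NC replicate 2, 4 members passed, with Enpp2 higher in the CEA and Folr1, Kl and Clic6 lower, where 2792 of 17099 genes passed. Kl, for example, was at 2.34, 3.49 and 2.07 CPM in PVN NC and at 0.717, 15.2 and 0.334 in CEA NC, and its log2 fold change went from 1.02 to -2.30. That of Clic6 went from 0.89 to -1.55. Leaving out any 1 of the 3 PVN NC libraries left 0 members past the threshold, where 2505 of 17056 genes passed without replicate 1, 6152 of 17041 without replicate 2 and 2551 of 17100 without replicate 3.

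Over all 24 libraries, with treatment as a term, 4 of the 9 members tested were higher in the CEA and 0 were lower, where 26.9% of 17768 genes were higher and 29.4% lower. Ttr was 0.239 to 4.48 CPM in the 12 PVN libraries (median 0.867) and 3.84 to 1682 in the 12 CEA libraries (median 10.8). Its log2 fold change came to 7.09 (SE 1.22, edgeR adjusted p = 2.84e-05). Enpp2 was 83.8 to 132 CPM in the PVN (median 107) and 118 to 394 in the CEA (median 191), a log2 fold change of 0.99 (SE 0.14, edgeR adjusted p = 1.6e-06). The oligodendrocyte list moved in the same direction, with 7 of its 7 genes higher in the CEA and a summed level of 9856 to 16748 CPM in the PVN and 25993 to 44088 CPM in the CEA. Its part in the Enpp2 difference was not tested. Aqp1 had a log2 fold change of 2.12 (SE 0.59, edgeR adjusted p = 0.00376) and Sostdc1 one of 2.77 (SE 0.93, edgeR adjusted p = 0.0148). Outside the 3 libraries that stood apart, Sostdc1 had at most 10 counts in a CEA library and 7 in a PVN library. Without those 3 it had too few counts to be tested, so its place among the 4 rests on them. The call for Sostdc1 was lost without CEA NC replicate 2 (1.71, adjusted p = 0.117), without CEA SEA replicate 2 (1.53, adjusted p = 0.14) and with the replicate number as a block (1.36, adjusted p = 0.209), and DESeq2 gave no p-value for it.

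Without the 3 libraries the direction of several members turned. Of 8 members tested, 2 were higher in the CEA and 5 lower, where 25.1% of 17991 genes were higher and 26.6% lower. Ttr remained higher in the CEA, at 9.17 ± 4.72 CPM (SD, n = 9) against 1.39 ± 1.23 (SD, n = 12), a log2 fold change of 2.87 (SE 0.36, edgeR adjusted p = 1.2e-06). Enpp2 also remained higher, by 0.79 (SE 0.09, edgeR adjusted p = 6.46e-07). Kl was lower in the CEA, at 0.772 ± 0.338 CPM (SD, n = 9) against 2.87 ± 0.746 (SD, n = 12), and no library of the 9 reached the lowest PVN value of 1.89 (7.76% of all genes were lower in the CEA without overlap). Its log2 fold change came to -1.90 (SE 0.24, edgeR adjusted p = 1.02e-06), against 0.37 with all libraries. Clic6 likewise did not overlap, at 1.23 to 4.54 CPM in the CEA and 4.71 to 7.79 in the PVN, with -1.19 (SE 0.21, edgeR adjusted p = 7.43e-05) against 0.41. Folr1 had -1.58 against -0.33, Slc4a5 -0.87 against 1.10 and Kcne2 -0.54 against 0.27, and all 3 passed the threshold without the 3 libraries (edgeR adjusted p = 0.00654, 0.00663 and 0.00865). Aqp1 no longer passed, at 0.56 (edgeR adjusted p = 0.222), and Sostdc1 no longer had enough counts to be tested.

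Leaving out libraries by their level of these same genes lowers the CEA values by construction. The medians over all 12 libraries of each region, which need no such choice, had the same order for these 5 genes. They were 0.869 CPM in the CEA and 2.77 in the PVN for Kl, 2.84 and 5.78 for Clic6, 0.973 and 3.12 for Folr1, 1.56 and 1.99 for Slc4a5, and 1.94 and 2.57 for Kcne2. For Sostdc1, which was called higher in the CEA with all libraries, the medians ran the other way, at 0.187 CPM in the CEA and 0.307 in the PVN, and the means without the 3 libraries were 0.169 and 0.289 CPM. Over all 24 libraries, 9 of 11 genes of the ependymal list were called lower in the CEA and 1 higher, where 29.4% of all genes were lower and 26.9% higher. The summed level of this list was 101 to 200 CPM in the PVN against 39.0 to 72.9 in the CEA. The part of ependyma in the PVN levels of the members was not tested.

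**Figure D4:**
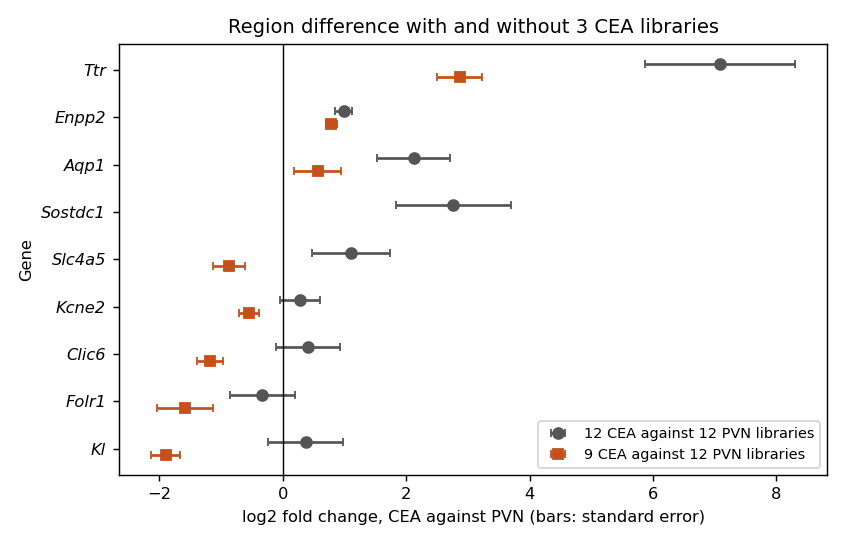
Log2 fold change between the regions (positive values are higher in the CEA) with its standard error derived from the edgeR F statistic, for all 12 CEA libraries (circles) and for the 9 left after CEA SEA replicate 2, CEA NC replicate 2 and CEA EA replicate 1 were taken out (squares), each against 12 PVN libraries. Kl, Clic6, Kcne2 and Slc4a5 cross 0, Ttr drops from 7.09 to 2.87, and Sostdc1 has no square because it was not tested.

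Per kilobase of gene length, which allows levels of different genes to be compared, Enpp2 led in the PVN with a median of 40.4 CPM per kilobase. Folr1 followed at 3.0, Clic6 at 1.59, Kcne2 at 1.5, Ttr at 1.24, Kl at 0.722 and Slc4a5 at 0.531. Aqp1 at 0.177 and Sostdc1 at 0.174 were the lowest above 0. The ranges of neighbours in this order overlapped from Folr1 downwards, so that only the step from Enpp2 to Folr1 was free of overlap. In the CEA Enpp2 also led by median, at 71.9 CPM per kilobase against 15.5 for Ttr. Enpp2 was the highest member in 21 of the 24 libraries and Ttr in the 3 that stood apart.

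By edgeR, 0 members passed the adjusted threshold between treatments. In the PVN, 7 members had enough counts in each of the 4 comparisons. In HT against NC, Ttr was at 0.882, 0.631 and 0.762 CPM in HT and at 0.758, 3.11 and 4.48 in NC, so that NC replicate 1 lay within the HT range. Its log2 fold change came to -1.84 (SE 0.59, edgeR adjusted p = 0.418), and it was the 1 member with an unadjusted p under 0.05, where 5.35% of 16727 genes had one and were lower in HT, and 0.0120% passed the adjusted threshold. In EA against HT, 2 members had an unadjusted p under 0.05, where 5.67% of 16641 genes had one and 0.0961% passed the adjusted threshold. Kl was at 3.22, 3.71 and 3.09 CPM in EA and at 2.41, 1.89 and 2.46 in HT, without overlap, with a log2 fold change of 0.55 (SE 0.21, edgeR adjusted p = 0.79). Folr1 was at 3.97, 3.82 and 3.19 CPM in EA and at 3.12, 2.21 and 1.99 in HT, also without overlap, with 0.57 (SE 0.23, edgeR adjusted p = 0.844). In this comparison 7.22% of all genes were higher in EA without overlap. In SEA against HT, 0 members had an unadjusted p under 0.05 (4.38% of all genes did), 0 genes in all passed the adjusted threshold by edgeR and 21 by DESeq2, and Kl was at 3.54, 2.11 and 4.13 CPM in SEA.

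In PVN EA against SEA, 1 member had an unadjusted p under 0.05, where 5.21% of 16606 genes had one and 0 passed the adjusted threshold by edgeR. This was Enpp2, at 89.5, 97.7 and 102 CPM in EA and at 111, 132 and 124 CPM in SEA. The groups did not overlap (4.31% of all genes were lower in EA without overlap), and the log2 fold change came to -0.35 (SE 0.07, edgeR adjusted p = 0.882). DESeq2 called it with an adjusted p of 0.0288, among 23 genes it called in this comparison.

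In the CEA, the Ttr difference between HT and each other treatment depended on the 1 high library of that treatment. HT, the group without such a library, had Ttr at 3.84, 16.9 and 7.64 CPM. Against NC, at 12.1, 1012 and 9.62 CPM, the log2 fold change came to -5.18 (SE 1.82, edgeR adjusted p = 0.918), and without CEA NC replicate 2 it was -0.19. For EA, at 352, 5.34 and 6.41 CPM, it was 3.68 against HT (SE 1.52, edgeR adjusted p = 0.93), and without CEA EA replicate 1 it was -0.69. For SEA, at 5.15, 1682 and 15.6 CPM, it was 5.89 against HT (SE 2.08, edgeR adjusted p = 0.959), and without CEA SEA replicate 2 it was 0.12. Groups overlapped in all 3 comparisons, which share the HT libraries.

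An unadjusted p under 0.05 was found for 2 of 8 members in CEA HT against NC (Ttr and Slc4a5), for 1 in EA against HT (Ttr), for 4 in SEA against HT (Ttr, Clic6, Slc4a5 and Enpp2) and for 0 in EA against SEA, where 3.75%, 3.19%, 3.07% and 1.99% of all genes had one. By the adjusted threshold edgeR called 0 of all genes in each of these 4 comparisons, and DESeq2 called 26, 7, 3 and 5. None of these was a member, but DESeq2 gave no p-value for 5, 2, 5 and 4 of the 10 members, Ttr and Otx2 each time, so for them the absence of a call says nothing. Without CEA NC replicate 2, the edgeR unadjusted p in HT against NC was 0.744 for Ttr and 0.442 for Slc4a5. Without CEA EA replicate 1, that of Ttr in EA against HT was 0.26. Without CEA SEA replicate 2, those in SEA against HT were 0.868 for Ttr, 0.651 for Clic6 and 0.66 for Slc4a5. Enpp2 stayed under 0.05 there, at 0.0304. In the fit blocked by replicate number, which paired HT with NC libraries, the members with an unadjusted p under 0.05 in CEA HT against NC were Folr1, Clic6 and Slc4a5 in place of Ttr and Slc4a5, and the log2 fold change of Ttr was -2.62 (edgeR adjusted p = 0.749). In SEA against HT, Enpp2 was at 198, 386 and 271 CPM in SEA and at 175, 118 and 156 in HT. The groups did not overlap (4.92% of all genes were higher in SEA without overlap), and the log2 fold change came to 0.91 (SE 0.26, edgeR adjusted p = 0.959), or 0.64 without CEA SEA replicate 2.

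Whether the effect of hepatectomy differed between the regions was tested as an interaction. Of 8 members, 0 passed the adjusted threshold, as did 0 of 17405 genes by edgeR and 1 by DESeq2, and 1 member, Slc4a5, had an unadjusted p under 0.05, where 12.1% of all genes had one. Slc4a5 was at 2.65, 2.51 and 1.51 CPM in PVN NC and 1.88, 1.64 and 3.58 in PVN HT, and at 0.955, 18.7 and 1.80 CPM in CEA NC and 0.992, 1.43 and 0.554 in CEA HT. The difference between the effects was 2.97 on the log2 scale (SE 1.26, edgeR adjusted p = 0.413) and 0.61 without CEA NC replicate 2.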

How the data were processed

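Read counts per gene were deposited by the authors without normalization. Per the labels and the study's methods, strand-specific mRNA libraries were mapped with HISAT2 and counted with featureCounts (versions not given in the sources used here). The methods name mRatBN7.2, whereas the submitters' processing notes list a human build. The table names none, and a gene on its chromosome 1 ends at 282724300, beyond the length that chromosome has in mRatBN7.2, so coordinates are given as they stand. Of 35032 rows, 32883 had an Ensembl identifier and 2149 were assembled transcripts. A stray second header line, which exchanges CEA EA replicates 2 and 3, was left out, and groups and numbers follow the sample titles. The handling of reads with several mapping places is not given.

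The groups of a comparison were tested on their counts, in R 4.3.3, by the two-sided quasi-likelihood test of edgeR 4.0.16, after filterByExpr and TMM, with Benjamini-Hochberg adjustment over all genes tested and a threshold of 0.05. Over all 24 libraries, treatment was an additive term. CPM values carry TMM factors, and r used a prior count of 2. SE is the standard error of a log2 fold change, derived as its size over the square root of the edgeR F statistic. Alternatives were DESeq2 1.42.0, RLE scaling, no filter on low counts, the replicate number as a block, each library left out in turn and, chosen after seeing the data, the 3 libraries with the most Ttr left out together. Deviations of same-numbered libraries correlated above 0.1 for all 3 numbers only in CEA NC against PVN NC (0.294, 0.13 and 0.196) and CEA HT against NC (0.239, 0.18 and 0.294). The main tests were not blocked in any comparison. The block treats the numbers as pairs, and the sources give no pairing of animals by number. On counts simulated for CEA HT against NC (16413 genes, 200 changed 4-fold), the test called 84.5% of the changed genes and 7 others. The changed genes were drawn only from those above a minimum mean count, so this share was not measured for genes at lower counts. The members, marker lists and comparisons were chosen with earlier results of these data known. Named genes are the members, the genes most like Ttr by r (5 over all libraries and 3 within a region) and up to 4 genes of a list by mean level. Cldn5 was named after its values were seen.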

Additional observations from a re-analysis of the deposited data

How the results depend on the processing

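Only the counts of members called between the regions and in PVN EA against SEA moved by more than 1.5 times. In CEA NC against PVN NC the 2 members became 1 with DESeq2, 1 with the replicate block, and 0 to 4 with 1 library left out. Over all libraries the 4 members became 2 with DESeq2, 3 with the replicate block, 7 without the 3 libraries and 3 to 4 with 1 library left out. Sostdc1 was lost without CEA NC replicate 2 or CEA SEA replicate 2, with the block and with DESeq2, which gave it no p. In PVN EA against SEA the 0 members became 1 with DESeq2. The other 8 counts stayed at 0 in each alternative, in DESeq2 over the members that had a p.

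Some directions turned. In CEA NC against PVN NC, Kl was -0.31 and Clic6 -0.16 with the replicate block, and with 1 library left out they ran from -2.30 to 1.57 and from -1.55 to 1.40, the lowest without CEA NC replicate 2. Over all libraries, Kl was -0.77 and Clic6 -0.41 with the block, and with 1 library left out Kl ran from -0.44 to 0.50, Clic6 from -0.19 to 0.56 and Kcne2 from -0.11 to 0.39, turning without CEA SEA replicate 2 and, for Kl and Clic6, without CEA NC replicate 2 (-0.27 and -0.12). Without the 3 libraries Kl was -1.90, Clic6 -1.19, Kcne2 -0.54 and Slc4a5 -0.87. Ttr in CEA EA against HT ran from -0.69, without CEA EA replicate 1, to 4.40. The cause was not tested. The block changed no other adjusted call of a member.

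Counts over all genes moved too. In CEA NC against PVN NC, 4414 genes passed and 2450 to 6152 did with 1 library left out. In PVN HT against NC, 2 genes became 29 with DESeq2 and 0 to 3418 with 1 library left out, 3418 without PVN NC replicate 2. In PVN EA against HT, 16 became 101 with DESeq2, 5 with the block and 0 to 28 with 1 library left out, and in the interaction 0 became 0 to 693. DESeq2 gave no adjusted p for Ttr in any comparison that held a CEA library, nor for 1 to 4 further members in each of these. Mean CPM from plain totals differed by less than 1 SD for 78 of 80 group levels. Changes smaller than 4-fold were not simulated, so the size of treatment difference that 3 libraries a group could show was not measured.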
